A study of Mus musculus with 32 samples.

Results

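The genes examined were 10 regulators of oocyte attrition and of the mitochondrial pathway of apoptosis: Trp63, Trp53, Chek2, Bax, Bcl2, Mcl1, Bbc3, Pmaip1, Casp2 and Casp9. They were chosen by name and were read only from array probes that the platform annotation pairs with a single gene symbol. Of the 10 genes, 8 had such a probe, 1 each, out of 19938 genes covered in this way. Trp53 and Bax had none and were not analysed here.

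The RNA came from fetal germ cells sorted by the EGFP signal of the OG2 transgene, which the Oct4 promoter drives, and it was hybridized to 32 Affymetrix Mouse Gene 1.0 ST arrays in 11 groups. The G1R groups, of genotype FVBxOG2, were germ cells of fetuses exposed in utero to bisphenol A (BPA, 0.2 mg/kg/day), the plasticizer bis(2-ethylhexyl) phthalate (DEHP, 750 mg/kg/day), the fungicide vinclozolin (VZ, 100 mg/kg/day) or the corn oil vehicle, through gavage of the G0 dam from 12.5 to 16.5 dpc. Both sexes were collected at 17.5 dpc: fetal oocytes from females and prospermatogonia from males, although the labels call all of them primordial germ cells. The G2R groups, of genotype OG2xFVB, were prospermatogonia of the unexposed next generation descending from the DEHP, VZ or oil dams, also collected at 17.5 dpc. There were 3 arrays in each group but 2 in G1R DEHP females, so that 11 arrays were from females and 21 from males. Every cell therefore carried the transgene, in both the treated and the oil groups, and the G2R and G1R cells differed in generation, in the direction of the cross and possibly in array run, which cannot be told apart. The labels do not say how many fetuses or litters gave each array, so the p-values measure only the spread between arrays.

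In the mouse ovary a large share of oocytes is lost around birth and during quality control of meiosis. Unrepaired DNA breaks activate the kinase CHEK2, which signals to p53 and to TAp63, the p63 isoform of the oocyte, and these induce the BH3-only proteins PUMA (from Bbc3) and NOXA (from Pmaip1). BH3-only proteins disable pro-survival proteins such as BCL2 and MCL1, which frees BAX to open the mitochondrial outer membrane and leads to the activation of caspases, with CASP9 as the initiator of the mitochondrial pathway and CASP2 as an initiator that the PIDD1 platform activates. In males of this age the prospermatogonia have stopped dividing and do not enter meiosis.

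RefSeq promoter entries (build GRCm38.p6) were found for 6 of the 8 measured genes, Trp63 and Pmaip1 having no entry. The 250 bases before the transcription start are shown for Bcl2 and Mcl1, the pro-survival pair that differed together between the sexes, and for Chek2, which passed between the generations in oil alone. Capitals mark every match, on either strand, to the motifs searched: the GC box GGGCGG, the CCAAT box CCAAT, the E-box CACGTG, the CRE TGACGTCA and the p53 family half-site. The Bcl2 window lies at chr1:106714291-106714540 on the minus strand, the Mcl1 window at chr3:95658471-95658720 on the plus strand, and the Chek2 window at chr5:110839733-110839982 on the plus strand.
Bcl2: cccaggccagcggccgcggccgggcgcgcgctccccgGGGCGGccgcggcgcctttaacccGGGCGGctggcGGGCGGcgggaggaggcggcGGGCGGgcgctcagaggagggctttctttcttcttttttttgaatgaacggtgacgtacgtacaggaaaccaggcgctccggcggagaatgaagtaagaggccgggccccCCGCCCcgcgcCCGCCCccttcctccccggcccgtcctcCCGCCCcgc
Mcl1: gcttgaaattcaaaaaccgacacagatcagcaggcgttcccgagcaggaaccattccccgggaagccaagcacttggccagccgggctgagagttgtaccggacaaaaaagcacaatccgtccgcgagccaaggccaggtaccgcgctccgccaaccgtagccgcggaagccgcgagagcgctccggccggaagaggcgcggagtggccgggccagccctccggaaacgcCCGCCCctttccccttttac
Chek2: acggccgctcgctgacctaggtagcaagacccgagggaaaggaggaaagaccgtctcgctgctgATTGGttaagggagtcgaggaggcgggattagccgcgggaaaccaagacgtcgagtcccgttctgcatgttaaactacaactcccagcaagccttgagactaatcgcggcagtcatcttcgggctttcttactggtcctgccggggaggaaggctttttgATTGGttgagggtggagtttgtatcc
The Bcl2 window held 7 GC boxes and the Mcl1 window 1, and neither held another motif of the set. The Chek2 window held 2 CCAAT boxes and no GC box. Among 32817 promoter windows of the same length, 32.7% held a GC box, 33.8% a CCAAT box, 6.02% an E-box, 1.55% a CRE and 7.12% a p53 family half-site, and no marked match overlapped another motif. The half-site letters were found in none of the windows of Chek2, Bcl2, Mcl1, Bbc3, Casp2 and Casp9, which says only that these letters are not in these 250 bases.

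The labelled cell types were checked against their markers. The 6 germ cell markers averaged 10.42 to 10.77 on the log2 scale in female arrays and 10.94 to 11.24 in male arrays. The 6 oocyte markers averaged 11.15 to 11.54 in female arrays and 7.53 to 7.94 in male arrays, and the 6 prospermatogonia markers 7.30 to 7.51 in female arrays and 9.75 to 10.12 in male arrays, with 1 of the 6 dim in the males of either generation (a mean log2 signal under 6.7). All 6 oocyte markers passed as higher in females in every treatment. Of the prospermatogonia markers 3 passed as lower in females in each treatment, 1 passed as higher and 2 did not pass. Of the germ cell markers 2 passed as higher and 2 as lower in oil females. Among markers of other gonadal cells, those passing as lower in oil females than in oil males were 6 of 6 for endothelial cells, 5 of 6 for peritubular and interstitial cells (with 1 higher), 3 of 6 for Sertoli cells, 3 of 6 measured for macrophages and blood cells, 2 of 6 for granulosa cells and 2 of 5 for fetal Leydig cells. Granulosa markers did not share one direction in the other treatments, with 0 higher and 3 lower in BPA but 2 higher and 1 lower in both DEHP and VZ, and they averaged 7.09 to 7.55 in female arrays and 7.42 to 7.63 in G1R male arrays. The 6 endothelial markers averaged 6.40 to 6.67 in female arrays and 7.75 to 8.08 in male arrays, and the 5 fetal Leydig cell markers 6.23 to 6.53 in female arrays and 6.52 to 8.79 in male arrays. The Leydig markers were highest in G2R DEHP array 2 (8.79), G1R BPA male array 2 (8.72) and G1R BPA male array 1 (8.23), against at most 7.85 in every other array. The same 2 BPA arrays led the 6 peritubular and interstitial markers (9.25 in array 2 and 8.57 in array 1). They also led the 6 Sertoli cell markers (8.52 in array 1 and 8.21 in array 2, against at most 7.93 in every other array). For the genes examined, values that rest on the 3 arrays of highest Leydig markers are also given without them. This covers values that passed, or had an unadjusted p under 0.05 in the treatment and generation comparisons. Leaving them out keeps BPA male array 3 as the only BPA male array, so for BPA only the difference is then given. The pathway lists below are given with all arrays only.

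The first comparison asked how fetal oocytes differ from prospermatogonia within each treatment. Trp63, Bcl2 and Mcl1 were higher in females than in males under BPA, DEHP, VZ and oil alike, by 1.76- to 2.77-fold. In BPA, 3 of the 8 genes passed the test (adjusted p under 0.05 over all 35556 probes, limma), as 55.8% of all probes did; in DEHP it was 4 of 8 (52.1% of all probes), in VZ 4 of 8 (55.4%) and in oil 3 of 8 (54.3%). The sexes thus differed at more than 1 in 2 probes, and the share of these genes that passed was no higher. All probes include those without a gene symbol, so this background is unlike the 8 genes. Of the 21789 probes of 1 gene symbol, tested alone, 14357 passed in BPA, 13984 in DEHP, 14646 in VZ and 14309 in oil in either direction. The median female minus male difference of the 8 genes was 0.16 in BPA, 0.30 in DEHP, 0.11 in VZ and 0.18 in oil on the log2 scale, against 0.08, 0.09, 0.11 and 0.05 for all probes in the same order.

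Trp63 encodes p63, the guardian of the oocyte genome; the probe reads the gene as a whole and does not separate TAp63 from the other isoforms. Its log2 signal was 9.05, 9.70 and 9.05 in BPA females, against 7.87, 7.95 and 7.91 in BPA males. It was 9.42 and 9.51 in DEHP females, against 7.96, 7.88 and 8.14 in DEHP males. All 5 DEHP arrays kept the sexes apart, and BPA female array 2 was the highest of the 32 arrays. It was 9.15, 9.39 and 9.13 in VZ females, against 7.93, 8.10 and 8.03 in VZ males. It was 9.40, 8.96 and 9.19 in oil females, against 7.97, 7.99 and 7.88 in oil males. The groups did not overlap in any treatment, as was the case for 61% of all probes in BPA, 68.2% in DEHP, 64.1% in VZ and 59.8% in oil. The female minus male difference was 1.36 ± 0.125 in BPA, 1.47 ± 0.140 in DEHP, 1.20 ± 0.125 in VZ and 1.24 ± 0.125 in oil (log2 ± SE), with limma adjusted p-values of 7.24e-10, 1.59e-09, 6.88e-09 and 3.96e-09. Without the 3 arrays of highest Leydig markers, which leaves BPA male array 3 alone, the BPA difference was 1.36.

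Bcl2, the founding pro-survival member of its family, was measured at 8.63, 8.44 and 8.58 in BPA females, against 7.64, 7.98 and 7.58 in BPA males. It was 8.63 and 8.45 in DEHP females, against 7.33, 7.77 and 7.49 in DEHP males. The highest male value, 7.98, was that of BPA male array 2, the array with the highest peritubular and interstitial markers. In VZ, Bcl2 was 8.87, 8.60 and 8.65 in females, against 7.39, 7.54 and 7.40 in males. In oil, it was 8.52, 8.69 and 8.61 in females, against 7.55, 7.16 and 7.67 in males. The sexes did not overlap in any treatment, as for 59.8% (oil) to 68.2% (DEHP) of all probes. Oil male array 2 was the lowest of all arrays. The difference was 0.81 ± 0.124 in BPA, 1.01 ± 0.138 in DEHP, 1.26 ± 0.124 in VZ and 1.15 ± 0.124 in oil (log2 ± SE), with limma adjusted p-values of 3.09e-06, 7.26e-07, 2.09e-09 and 1.16e-08. Without the 3 arrays of highest Leydig markers, with BPA male array 3 alone on the male side, the BPA difference was 0.97.

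Mcl1 encodes a short-lived pro-survival protein of the same family. It was 10.39, 10.38 and 10.53 in BPA females, against 9.19, 9.22 and 9.16 in BPA males. It was 10.54 and 10.49 in DEHP females, against 9.00, 9.22 and 9.29 in DEHP males. Female and male arrays were more than 1 log2 unit apart in both treatments. It was 10.69, 10.48 and 10.49 in VZ females, against 9.27, 9.12 and 9.03 in VZ males. It was 10.45, 10.10 and 10.18 in oil females, against 8.75, 9.06 and 8.86 in oil males. The lowest value of either sex was that of an oil array. The female minus male difference was 1.24 ± 0.107 in BPA, 1.34 ± 0.119 in DEHP, 1.41 ± 0.107 in VZ and 1.35 ± 0.107 in oil (log2 ± SE), with limma adjusted p-values of 1.85e-10, 4.29e-10, 1.68e-11 and 3.89e-11. It was 1.27 in BPA when those 3 arrays were left out, with BPA male array 3 alone on the male side.

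**Figure D1:**
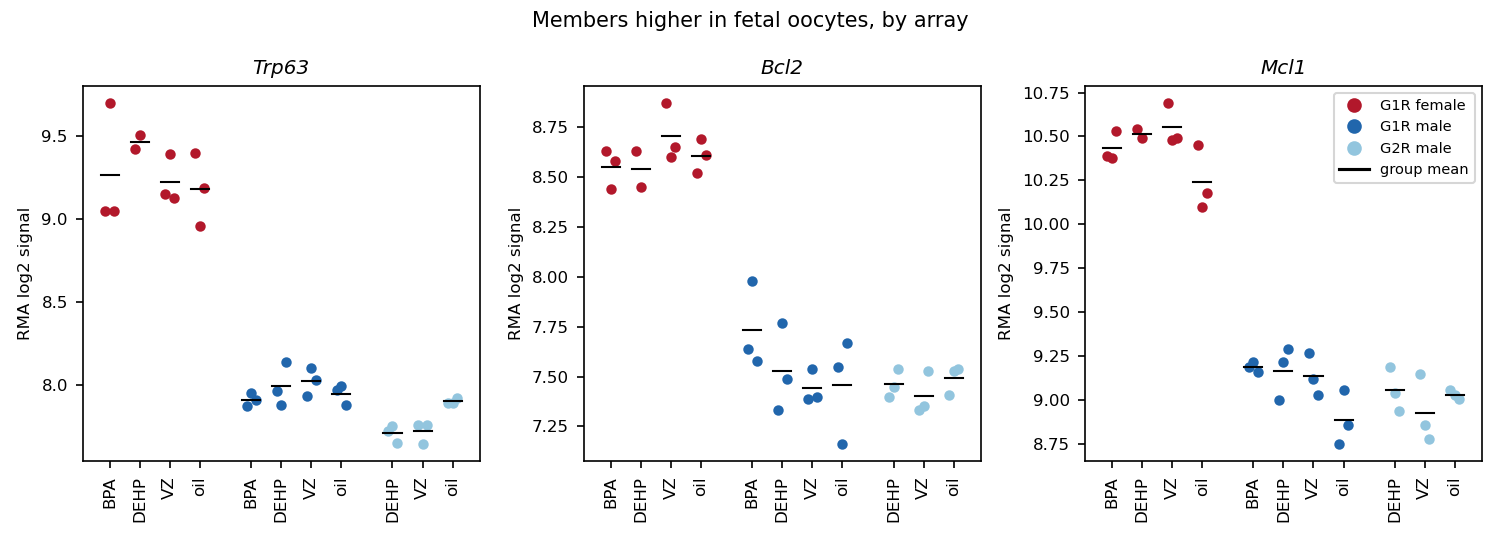
RMA log2 signal (y axis) of Trp63, Bcl2 and Mcl1 in each array (points), by treatment (x axis), for G1R females, G1R males and G2R males; black lines are group means. All 11 female points lie above all 21 male points for each of the 3 genes: Trp63 at 8.96 to 9.70 against 7.64 to 8.14, Bcl2 at 8.44 to 8.87 against 7.16 to 7.98, and Mcl1 at 10.10 to 10.69 against 8.75 to 9.29.

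For these 3 genes all 11 female arrays were above all 21 male arrays, G2R included, which held for 16.7% of all probes. The 3 genes passed as higher in all 4 treatments, as 20.6% of probes did, and none of the 8 passed as lower in all 4, as 19.5% of probes did. The endothelial markers above were lower in the same female arrays, and their part in the sex differences was not tested.

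Chek2, the checkpoint kinase of the oocyte DNA damage response, passed in DEHP alone. It was 8.13 and 8.28 in DEHP females, against 7.61, 7.83 and 7.86 in DEHP males. The sexes did not overlap, as for 68.2% of all probes in this comparison with its 2 female arrays. The difference was 0.44 ± 0.179 (log2 ± SE, limma adjusted p = 0.0413). It was not past the threshold without DEHP female array 1 (adjusted p = 0.0712) or 2 (0.214), or without DEHP male array 1 (0.132) or 2 (0.0528). It also missed it with the unmoderated contrast (0.0522), which stands for the ANOVA of the methods, and after cyclic loess (0.0546). In BPA, VZ and oil the Chek2 difference was 0.19, 0.09 and 0.14 with overlapping groups, and the DEHP effect did not differ between the sexes by a test of the interaction (0.30 ± 0.240, limma adjusted p = 0.82).

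Among the BH3-only genes, Pmaip1 passed as lower in VZ females alone. It was 6.72, 6.99 and 7.04 in VZ females, against 7.16, 7.22 and 7.05 in VZ males, a gap of 0.01 between the closest arrays of the sexes. In VZ the sexes were separate for 64.1% of all probes. The difference was -0.23 ± 0.095 (log2 ± SE, limma adjusted p = 0.0459). Without VZ female array 1 it was -0.13 (adjusted p = 0.292), it missed the threshold also without VZ male array 1 (0.094) or 2 (0.154), with only the arrays compared (0.114) and with array quality weights (0.0561), and after cyclic loess normalization, another scaling of the arrays, it was -0.17 (adjusted p = 0.138). In BPA, DEHP and oil the Pmaip1 difference was -0.01, -0.11 and -0.12 and did not pass. The oil sexes were separate for Pmaip1 all the same, as for 59.8% of all probes. Bbc3 was dim, with a mean log2 signal of 6.33 over all arrays, with a range of 6.19 to 6.74 over female arrays and of 6.11 to 6.53 over male arrays. Its difference was 0.01 in BPA, 0.16 in DEHP, 0.14 in VZ and 0.22 in oil, with the lowest adjusted p in oil (0.0681). The sexes were separate for Bbc3 in VZ alone, as for 64.1% of all probes there. The oil difference passed with array quality weights (0.30, adjusted p = 0.00964), without oil female array 1 (0.33, 0.00736) and without oil male array 1 (0.28, 0.0381).

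Neither initiator caspase passed in any treatment with the arrays as deposited, but Casp9 passed as lower in females in all 4 after cyclic loess. Casp2 spanned 9.61 to 9.85 in female arrays and 9.52 to 9.75 in G1R male arrays, and its female minus male difference was 0.06 to 0.15. The sexes were separate for Casp2 in DEHP alone, as for 68.2% of all probes there. Casp9 spanned 8.41 to 8.70 in female arrays and 8.50 to 8.79 in G1R male arrays, and its difference was -0.13 to -0.09. After cyclic loess the Casp9 difference was -0.32 in BPA, -0.32 in DEHP, -0.29 in VZ and -0.31 in oil (limma adjusted p = 0.000726, 0.00195, 0.00155 and 0.000924). The split of the 8 genes was then 3 higher and 1 lower in each treatment, against 3 and 0 in BPA, 4 and 0 in DEHP, 3 and 1 in VZ and 3 and 0 in oil as deposited. With oil as the example, the 95% interval of the difference was -0.14 to 0.27 for Casp2 and -0.28 to 0.05 for Casp9, so that sex differences as large as those of Trp63, Bcl2 and Mcl1 lay outside both.

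**Figure D2:**
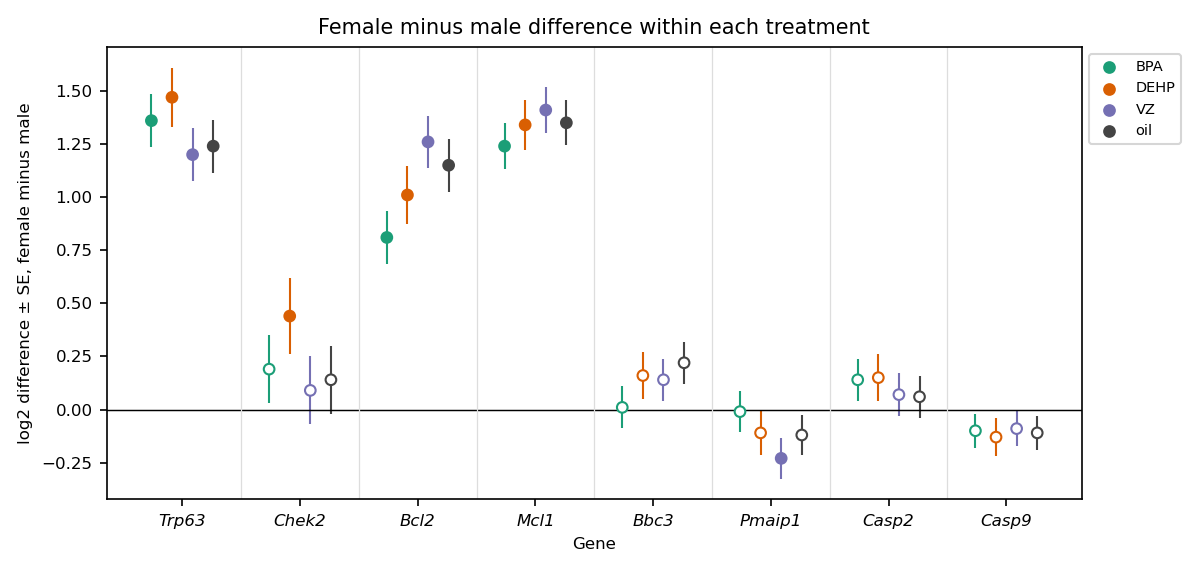
Female minus male log2 difference with its SE (y axis) of the 8 measured genes (x axis) in BPA, DEHP, VZ and oil; filled points passed the test. Trp63, Bcl2 and Mcl1 lie between 0.81 and 1.47, and the other 5 genes between -0.23 and 0.44.

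The second comparison asked whether an endocrine disruptor (ED) changed these genes relative to oil. No gene passed in any of the 8 comparisons of BPA, DEHP or VZ with oil: of 64 values, 0 had an adjusted p under 0.05 with limma (0 also with the unmoderated contrast), 8 had an unadjusted p under 0.05 (4.56% to 18.3% of all probes did in the 8 comparisons), and the lowest adjusted p was 0.211. The background was as low. In G1R males 0.00562% of all probes passed for DEHP and 0.00562% for VZ, and 0% passed in the other 6 comparisons. The differences of the 8 genes lay between -0.20 and 0.34 on the log2 scale.

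Mcl1 accounted for 5 of the 8 values at an unadjusted p under 0.05. As listed above, its log2 signal in G1R females was 10.38 to 10.53 in BPA, 10.49 and 10.54 in DEHP and 10.48 to 10.69 in VZ, against 10.10 to 10.45 in oil. In G1R males it was 9.16 to 9.22 in BPA, 9.00 to 9.29 in DEHP and 9.03 to 9.27 in VZ, against 8.75 to 9.06 in oil. The groups did not overlap for DEHP and VZ in females (22.3% and 11.8% of all probes did not) and for BPA in males (13.3%), and they overlapped in the other G1R comparisons. The treated minus oil difference in females was 0.19 ± 0.107 for BPA, 0.27 ± 0.119 for DEHP and 0.31 ± 0.107 for VZ (log2 ± SE, limma adjusted p = 1, 0.771 and 0.744). In males it was 0.30, 0.28 and 0.25, each ± 0.107 (adjusted p = 0.512, 0.239 and 0.211). The BPA value in males was 0.27 without the 3 arrays of highest Leydig markers, with BPA male array 3 as the only treated array. All 6 were above 0, as for 9.36% of all probes, and the 3 comparisons of each sex share their oil arrays. In G2R males Mcl1 was 8.94 to 9.19 in DEHP and 8.78 to 9.15 in VZ, against 9.01 to 9.06 in oil. The G2R difference was 0.02 for DEHP and -0.10 for VZ. The VZ effect in G2R males minus that in G1R males was -0.35 ± 0.151 and missed the threshold (limma adjusted p = 0.253).

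Of the other 3 values at an unadjusted p under 0.05, that of Bcl2 was 0.27 ± 0.124 in BPA males (adjusted p = 0.675) and was 0.12 without the 3 arrays of highest Leydig markers, 2 of which were BPA males. Casp2 was 10.07, 9.85 and 10.06 in G2R DEHP males, against 9.61, 9.90 and 9.60 in G2R oil males, with oil array 2 inside the DEHP range. Its difference was 0.29 ± 0.10 (adjusted p = 0.655), or 0.36 (0.213) without the 3 arrays, G2R DEHP array 2 among them. Bbc3 was 6.46, 6.51 and 6.53 in G2R VZ males, against 6.40, 6.33 and 6.15 in G2R oil males, with no overlap, as for 10% of probes in that comparison. Its difference was 0.21 ± 0.099 (limma adjusted p = 0.919), at signals that were all dim, under 6.7.

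In DEHP females Trp63 (9.42 and 9.51, against 8.96, 9.19 and 9.40 in oil) and Chek2 (8.13 and 8.28, against 7.83, 7.85 and 7.92 in oil) did not overlap with the oil arrays, as for 22.3% of probes in this comparison with its 2 treated arrays. Their differences were 0.28 ± 0.140 and 0.34 ± 0.179 (limma adjusted p = 0.803 and 0.822). Casp2 was also separate there, at 9.79 to 9.85 against 9.61 to 9.68 in oil (0.16 ± 0.112, limma adjusted p = 0.871). In G2R males the Trp63 values of DEHP (7.72, 7.75 and 7.65) and VZ (7.76, 7.64 and 7.76) all lay below those of oil (7.89, 7.89 and 7.92), a separation that 9.69% of probes had for DEHP and 10% for VZ. The differences were -0.19 ± 0.125 and -0.18 ± 0.125 (limma adjusted p = 0.805 and 0.938). Pmaip1 and Casp9 differed from oil by -0.17 to -0.01 and by -0.05 to 0.10 over the 8 comparisons. The Pmaip1 values of BPA males (6.92 to 7.03) lay below those of G1R oil males (7.13 to 7.21). Groups were separate for 13.3% of probes in that comparison. The intervals show what these arrays could resolve: for Trp63 in BPA females, for example, the 95% interval was -0.18 to 0.34.

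**Figure D3:**
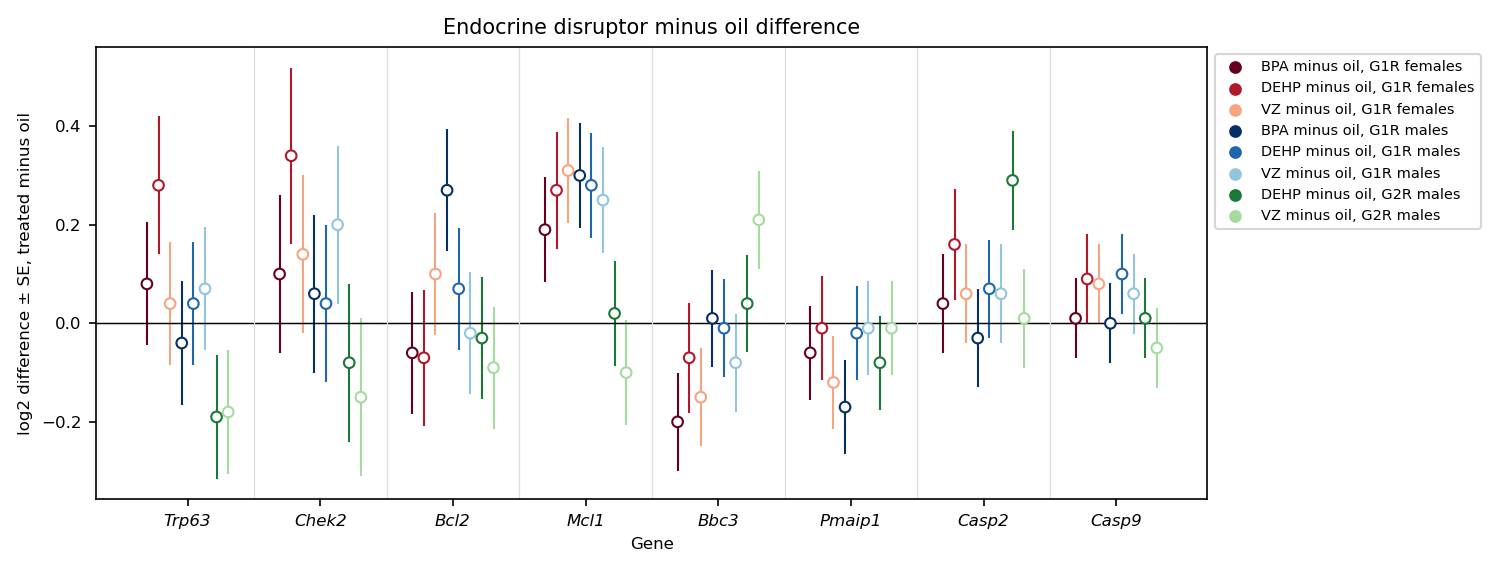
Treated minus oil log2 difference with its SE (y axis) of the 8 measured genes (x axis) in the 8 comparisons (colours); open points did not pass the test, and none passed. The 6 G1R values of Mcl1 lie between 0.19 and 0.31, and both G2R values between -0.10 and 0.02.

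The ED effects did not differ detectably between the sexes or the generations for these genes: of 40 interaction values, 0 passed (limma; 0 also with the unmoderated contrast), 1 had an unadjusted p under 0.05, and 0% of all probes passed in each of the 5 interactions.

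The third comparison set the G2R prospermatogonia against the G1R prospermatogonia of the same treatment. In DEHP males 1 of the 8 genes, Casp2, passed (14.5% of all probes did), in VZ males 0 of 8 (7.77%) and in oil males 1 of 8, Chek2 (10.3%). The median difference of the 8 genes was -0.03 in DEHP, -0.02 in VZ and 0.07 in oil, against 0.00, 0.00 and -0.03 for all probes.

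Chek2 was 8.25, 8.39 and 7.95 in G2R DEHP males, against 7.61, 7.83 and 7.86 in G1R DEHP males. It was 8.24, 8.22 and 7.92 in G2R VZ males, against 7.89, 7.78 and 8.09 in G1R VZ males. It was 8.41, 8.33 and 8.07 in G2R oil males, against 7.32, 8.09 and 7.76 in G1R oil males. The groups were separate in DEHP, as for 29% of all probes, and overlapped in VZ and oil. G1R oil array 1 was the lowest of all 32 arrays. The G2R minus G1R difference was 0.55 ± 0.160 in oil (log2 ± SE, limma adjusted p = 0.03), 0.43 ± 0.160 in DEHP (0.0729) and 0.21 ± 0.160 in VZ (0.478). Without G1R oil array 1 the oil difference was 0.35 (adjusted p = 0.205), and the call was also lost without G1R oil array 3 (0.0689), G2R oil array 1 (0.113) or G2R oil array 2 (0.0879). The DEHP difference passed without G2R DEHP array 3 (0.55, adjusted p = 0.0372) and among probes of a single gene symbol (0.0475), and it was 0.33 (0.236) without the 3 arrays of highest Leydig markers.

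Casp2 was 10.07, 9.85 and 10.06 in G2R DEHP males, against 9.70, 9.75 and 9.56 in G1R DEHP males. The groups did not overlap, as for 29% of all probes, and the 3 G2R DEHP values included the highest of the series. The difference was 0.32 ± 0.10 (log2 ± SE, limma adjusted p = 0.03), and it missed the threshold without G1R DEHP array 1 (0.0566) or 3 (0.129) or without G2R DEHP array 1 (0.116) or 3 (0.0925). Without the 3 arrays of highest Leydig markers, 1 of them G2R DEHP array 2, it was 0.39 (adjusted p = 0.0249). In VZ and oil the Casp2 difference was 0.06 and 0.11, with overlapping groups.

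Bbc3 was 6.46, 6.51 and 6.53 in G2R VZ males, against 6.24, 6.21 and 6.13 in G1R VZ males. The groups did not overlap (27.1% of probes did not), and the difference was 0.31 ± 0.099 (limma adjusted p = 0.0574). It passed among probes of a single gene symbol (0.0472) and with array quality weights (0.0448). All of these Bbc3 signals were dim, under 6.7. The Trp63 values of G2R males all lay below those of G1R males in DEHP and VZ. Groups were separate for 29% of all probes in DEHP and for 27.1% in VZ. The Trp63 difference was -0.28 ± 0.125 in DEHP (limma adjusted p = 0.132) and -0.30 ± 0.125 in VZ (0.152). Without the 3 arrays of highest Leydig markers the DEHP difference was -0.31 (limma adjusted p = 0.183). In oil the Trp63 difference was -0.05 and the groups overlapped. Bcl2, Mcl1, Pmaip1 and Casp9 lay between -0.22 and 0.14 in the 3 treatments and did not pass.

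**Figure D4:**
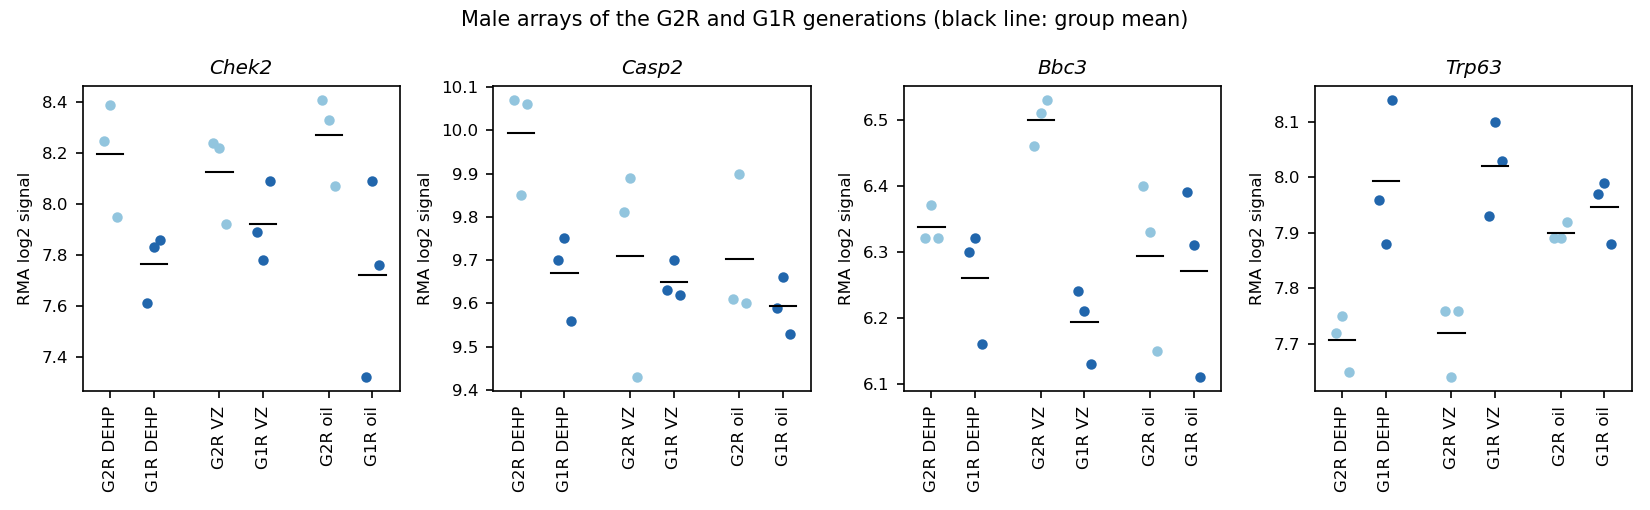
RMA log2 signal (y axis) of Chek2, Casp2, Bbc3 and Trp63 in the G2R and G1R male arrays (points) of each treatment (x axis); black lines are group means. The Chek2 points of G2R and G1R overlap in VZ and oil, and the Casp2 points of G2R DEHP (9.85 to 10.07) lie above those of G1R DEHP (9.56 to 9.75).

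Over the 11 group means, Trp63, Bcl2 and Mcl1 followed each other (Pearson r of 0.97 for Trp63 with Bcl2, 0.98 for Trp63 with Mcl1 and 0.99 for Bcl2 with Mcl1). Casp9 ran against them (r of -0.81, -0.83 and -0.77), although its own sex differences passed after cyclic loess alone, and Chek2 did not follow them (r of 0.07, 0.04 and 0.11). These are descriptions of 11 points that share the split between the sexes. Between the highest and the lowest group the means ranged over 1.76 for Trp63, 1.66 for Mcl1 and 1.31 for Bcl2, against 0.55 for Chek2, 0.43 for Casp2, 0.31 for Bbc3, 0.24 for Pmaip1 and 0.23 for Casp9 on the log2 scale. The SD within a group was at most 0.388, for Chek2 in G1R oil males.

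The rest of the pathway was read from 5 lists holding 71 genes, of which 65 were measured. In oil females against oil males 31 of the 65 passed as higher and 22 as lower, against 28.7% and 25.6% of all probes. All probes include those without a gene symbol, so this background is unlike the lists. With only the 21789 probes of 1 gene symbol tested, 14309 passed in oil in either direction. In the DNA damage and meiotic checkpoint list 15 of 21 were higher and 5 lower, with a median of 0.57 against 0.05 for all probes. The genes with the smallest p were Mdc1, which binds the phosphorylated histone at DNA breaks (1.99), Topbp1, an activator of ATR (1.78), and Rad1, a subunit of the checkpoint clamp (1.30). In the other direction they were Trp53bp1, which binds chromatin at breaks (-1.05), Nbn of the MRN complex (-0.93) and Csnk1e, a casein kinase (-0.79). The other genes of the MRN complex, Mre11a (0.43) and Rad50 (0.52), were higher in females.

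Among regulators and targets of the p53 family 6 of 17 were higher and 8 lower in oil females (median 0.02). Higher were Trp53inp1 (1.41), Aen, an apoptosis-enhancing nuclease (1.59), and Ei24 (1.5), and lower were the death receptor genes Tnfrsf10b (-1.92) and Fas (-1.22), and Perp, a p53 target of the cell membrane (-1.38). Of 3 measured pro-survival relatives of Bcl2, Bcl2l10 was higher (1.05, with mean signals of 6.49 in females and 5.44 in males that are both dim), Bcl2l1, which encodes BCL-XL, was lower (-0.44), and Bcl2l2 did not pass (-0.23). Of the 8 effectors and BH3-only genes, 2 were higher, Bid (0.97) and Bad (0.42), and 5 lower, with Bcl2l11, which encodes BIM (-0.79), Bmf (-0.44) and Hrk (-0.39) at the smallest p (median of the list -0.41). Of the 16 caspases, activators and inhibitors 7 were higher and 3 lower (median 0.10). Higher were Htra2, a mitochondrial protease (1.68), Fadd, an adaptor of death receptors (1.38), and Xiap, an inhibitor of caspases (0.89), and lower were Pidd1, which activates CASP2 (-1.01), Casp8 (-0.92) and Cflar, an inhibitor of CASP8 (-0.34, dim in both sexes with means of 5.99 in females and 6.33 in males). Apaf1, the scaffold that activates CASP9, did not pass (0.05, limma adjusted p = 0.73).

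**Figure D5:**
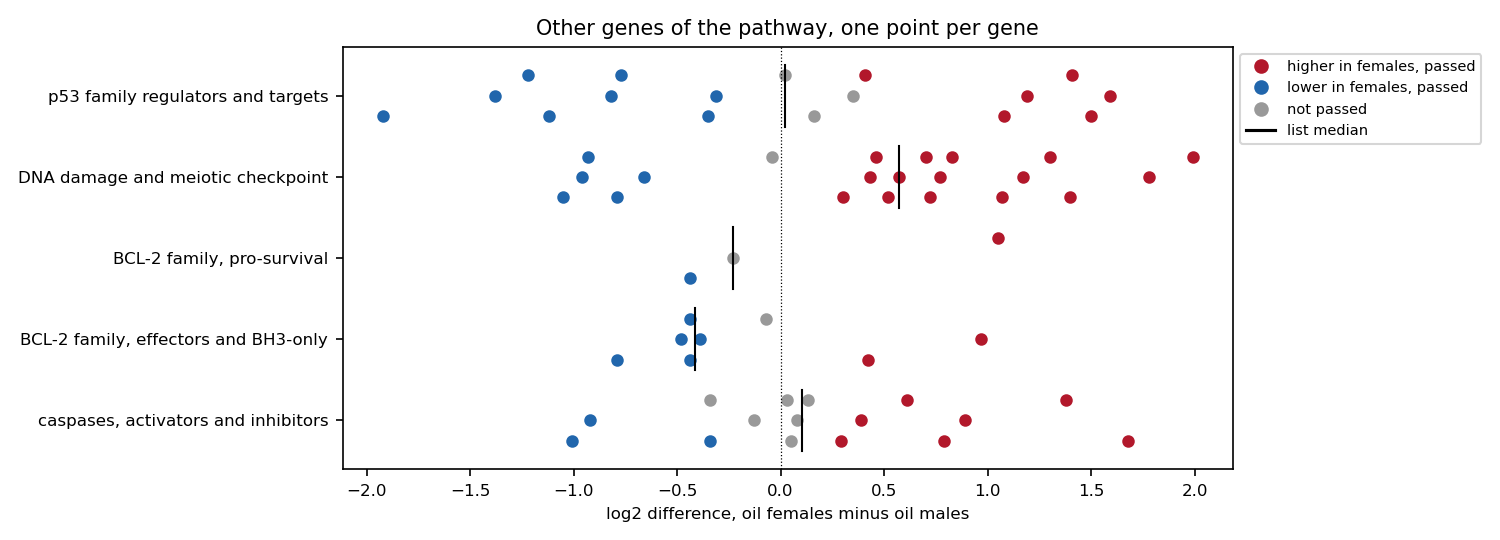
Log2 difference of oil females minus oil males (x axis) for the 65 measured genes of the 5 other pathway lists (rows, 1 point per gene); red points passed as higher in females, blue points as lower, grey points did not pass, and black lines are list medians. The medians are 0.02 for the p53 family list, 0.57 for the checkpoint list, -0.23 for the pro-survival list, -0.41 for the effectors and BH3-only genes and 0.10 for the caspase list.

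The same lists gave 32 higher and 23 lower in BPA (30.6% and 25.1% of all probes), 32 and 23 in DEHP (28.5% and 23.6%), and 31 and 23 in VZ (31% and 24.5%). Of the 21789 probes of 1 gene symbol, tested alone, 14357, 13984 and 14646 passed in BPA, DEHP and VZ in either direction. In the 8 comparisons of an ED with oil, 0 of the 65 genes passed (limma). Between G2R and G1R males 10 were higher and 3 lower in DEHP (6.91% and 7.56% of all probes), 2 and 0 in VZ (2.98% and 4.78%), and 15 and 1 in oil (5% and 5.3%). In oil these included Mdm2, the p53 ubiquitin ligase (0.61), and Cycs, somatic cytochrome c (0.77), and the gene that was lower was Dffa, the inhibitor of the caspase-activated nuclease (-0.29). In DEHP the 3 lower genes were Perp (-0.71), Casp8 (-0.61) and Hrk (-0.23). The genes named for the generations were chosen after their values were seen.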

How the data were processed

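RNA of FACS-sorted fetal germ cells was hybridized to 32 Mouse Gene 1.0 ST arrays. The authors normalized the arrays by robust multichip averaging (RMA, with Partek software, version not given in the sources used here), and the deposited values are log2 signals per probe (2.59 to 14.82, 35556 probes, array medians 7.29 to 7.50). RMA sets the arrays to a common distribution, so that a shift of all genes would not be seen, and the number of arrays limits the precision.

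A mean per group was fitted to all arrays with limma 3.58.1 in R 4.3.3 (21 residual and 3.67 prior degrees of freedom), and two-sided p-values were adjusted for all 35556 probes with the Benjamini-Hochberg procedure (threshold 0.05). The methods' ANOVA with linear contrasts was the unmoderated alternative. The 20 contrasts were 4 between sexes, 8 of an ED with oil, 3 between generations and 5 interactions. A gene was named only from probes that the platform annotation pairs with 1 symbol (21789 probes; 1621 pair with several and 12146 are not listed). All measured members are named, and from each further list up to 3 genes per direction with the smallest p in oil. The members and lists were chosen with earlier results of these data known. The model was also run on simulated data with independent noise and effects planted in oil females alone. That setting is unlike these data, so the run is not used as support. Promoters were searched and figures drawn with Python 3.11.15 and matplotlib 3.10.9.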

Additional observations from a re-analysis of the deposited data

How the results depend on the processing

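The counts of genes that passed were recomputed with an unmoderated contrast, with only the arrays compared, with probes above a mean log2 signal of 6.7, with probes of 1 gene symbol, after cyclic loess, with array quality weights, with a replicate block, with a 1.5-fold minimum, without each array in turn and, an alternative chosen after the marker levels were seen, without the 3 arrays of highest Leydig markers. Of 313 such counts, 299 stayed within 1.5 times the reported count and 14 did not, all between the generations. The ED and interaction counts were 0 as deposited. At most 0.00562% of all probes passed there, so these counts had little room to change. A count also hides a change of genes, such as Casp9 in place of Chek2 in DEHP females against males after cyclic loess. Between the generations, the count in oil was 0 with only the arrays compared, 0 with the 1.5-fold minimum, and 0 to 1 without single arrays. In DEHP it was 0 with only the arrays compared, 2 with probes of 1 gene symbol (Chek2 and Casp2), 0 with the 1.5-fold minimum, and 0 to 1 without single arrays. In VZ it was 1 with probes of 1 gene symbol and 1 with array quality weights, each time Bbc3, which is dim. Of 526 values of single genes that passed in some setting or had an unadjusted p under 0.05 outside the sex comparisons (with Mcl1 in every ED comparison), 486 kept their direction and side of the threshold, 28 missed it, 11 newly passed (Casp9 in 4, Bbc3 in 5 and Chek2 in 2) and 1 changed sign: Mcl1 in DEHP minus oil G2R males, at -0.04 without G2R DEHP array 1 (-0.04 to 0.08 over the arrays left out). The replicate numbers did not pair the arrays: in the pairing check, same-numbered arrays had an r of -0.35 to 0.13. That r is not one of whole arrays, which correlated at 0.985 or more within a group. With the replicate block Chek2 in DEHP females against males (0.42, limma adjusted p = 0.0634) missed the threshold. Pmaip1 in VZ females against males (-0.23, limma adjusted p = 0.0542) missed it too, and no other call changed. Cyclic loess moved the median of all probes in VZ females against males to 0.01, against 0.11 as deposited. In the pathway lists no gene that had passed changed sign after cyclic loess. In oil females against males 27 were then higher and 24 lower, and the caspase list had a median of -0.03. The checkpoint list had a median of 0.35, with 13 higher and 6 lower. Its gene Mre11a was then 0.18 in oil, and at 0.07 in BPA, 0.07 in DEHP and 0.01 in VZ it did not pass. Between the generations 8 were higher in G2R than in G1R oil males, against 15 as deposited. Every member had a single probe, so the alternative of another probe could not be run. The cause of these changes was not tested.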

Other observations

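Beside the members, 2 genes of the pathway lists passed as higher in G2R than in G1R males in every treatment, as 0.914% of all probes did; they were chosen after their values were seen. Sesn2, a stress-induced p53 target, was higher by 0.79 in DEHP, 0.63 in VZ and 0.57 in oil on the log2 scale (limma adjusted p = 0.000763, 0.00859 and 0.0146). Bcl2l1, the gene of the pro-survival protein BCL-XL, was higher by 0.46, 0.39 and 0.32 (adjusted p = 0.000882, 0.00654 and 0.0191). Both were lower in females than in males within every G1R treatment, Sesn2 by -1.12 to -0.80 and Bcl2l1 by -0.45 to -0.26.

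The genes with the pattern most like that of Trp63 over the 11 group means were Nkd1, Il17rb and Faap24 (Pearson r of 0.999, 0.998 and 0.998), but 23.8% of single-gene probes reached an r over 0.9. For Mcl1, the member most higher in oil females, they were Tmem135, Gas2 and Slc35f5 (0.998, 0.997 and 0.997; 23.9% over 0.9). For Pmaip1, the member most lower, they were Srf, Ankrd34c and Scrg1 (0.901, 0.891 and 0.886), and 1 probe was over 0.9.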
